A study of Mus musculus with 4 samples.

Results

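KO-only regions outside promoters were stretches of the mouse genome that carried a peak of open chromatin in both tumors grown in Esm1 knockout hosts and in neither tumor grown in wild-type hosts. Accessibility was read by ATAC-seq, in which a transposase cuts and tags open DNA, and the ends of the sequenced fragments pile up into peaks. Overlapping peaks, those with 1 bp or more in common, were joined across the 4 libraries into 122166 regions on mm10. Of these, 2025 (1.66%) had a peak in both KO libraries and neither WT library. Regions off the autosomes, regions within 1000 bp of a protein-coding transcription start, and regions in 2 segments, 1.81 Mb of chromosome 15 around Myc and the last 17.2 Mb of chromosome 13 with Esm1, were then set aside. The same filters left 102813 regions in the whole series, of which 1817 (1.77%) were KO-only, and these 1817 are described here. The segment of chromosome 15 held 42 further KO-only regions, that of chromosome 13 held 15, and 106 lay at promoters. By comparison, 1668 regions (1.62%) had the mirror pattern, a peak in both WT libraries and neither KO library. Sets held only by 1 WT and 1 KO library ranged from 451 to 7748 regions under the same filters.

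The tumors came from mG7080, a sphere line that the study obtained from a genetically engineered mouse glioblastoma model, injected into the brains of C57BL/6 mice. The WT hosts carried Esm1, the gene for the endothelial proteoglycan Endocan, and the KO hosts lacked it, so that the injected tumor cells were of the same line in both groups. There were 2 tumors per group, called WT1, WT2, KO1 and KO2 after their replicate numbers, and all 4 shared the line, the strain and the site of injection. The labels give no age or time after injection, and the study's methods give ages of its injected mice as a range in weeks, not for each tumor. The labels name tumor tissue, the study's methods name freshly isolated tumor cells, and its results name cells derived from such tumors, so which material was used is not settled here. With 1 line of origin the p-values measure the spread between these tumors. Tissue or freshly isolated cells can hold host cells beside tumor cells, and a change in the share of a cell type cannot be told apart from a change of accessibility within it.

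Enhancers are stretches of DNA away from promoters that bind transcription factors and raise the activity of genes on the same chromosome. They are opened by factors that read short sequence motifs, and the set of open enhancers differs between cell types far more than the set of open promoters does. In glioma and in the developing brain, basic helix-loop-helix (bHLH) factors such as the OLIG and NEUROD families bind 6-base E-boxes, SOX factors and NFI factors keep glial and stem cell programs, and POU factors bind an octamer.

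Of the motifs searched, the one with the largest rise in share from regions open in all 4 libraries to KO-only regions, by ratio, was the palindromic E-box CATATG, a site known for OLIG and NEUROD family factors. The 201 bases around the summit are shown for 6 of the 232 KO-only regions that held it, in capitals where the motif lies. The first 3 are among the 8 strongest holders, and the other 3 hold 3 copies each. All are read 5′ to 3′ on the plus strand of mm10.
Stum intron, chr1:180480534-180480734: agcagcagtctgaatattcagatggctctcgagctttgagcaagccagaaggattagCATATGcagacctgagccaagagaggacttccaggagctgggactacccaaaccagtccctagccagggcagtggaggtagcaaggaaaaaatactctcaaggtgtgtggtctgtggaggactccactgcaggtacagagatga
Anxa11 intron, chr14:25861856-25862056: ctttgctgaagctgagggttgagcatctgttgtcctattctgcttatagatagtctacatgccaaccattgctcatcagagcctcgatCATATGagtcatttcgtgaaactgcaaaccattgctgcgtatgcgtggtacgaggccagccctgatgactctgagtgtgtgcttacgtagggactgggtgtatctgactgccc
Crym intron, chr7:120190283-120190483: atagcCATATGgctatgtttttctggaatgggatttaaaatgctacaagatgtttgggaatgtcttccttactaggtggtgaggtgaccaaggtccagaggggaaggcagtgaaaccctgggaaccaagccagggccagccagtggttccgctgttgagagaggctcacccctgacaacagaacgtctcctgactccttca
531050 bp from the start of Mpdz, chr4:81973757-81973957: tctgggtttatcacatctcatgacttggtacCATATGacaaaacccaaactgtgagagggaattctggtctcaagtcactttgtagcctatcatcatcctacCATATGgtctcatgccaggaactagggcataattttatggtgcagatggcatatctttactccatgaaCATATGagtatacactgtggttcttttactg
73225 bp from the start of Cntn4, chr6:105604420-105604620: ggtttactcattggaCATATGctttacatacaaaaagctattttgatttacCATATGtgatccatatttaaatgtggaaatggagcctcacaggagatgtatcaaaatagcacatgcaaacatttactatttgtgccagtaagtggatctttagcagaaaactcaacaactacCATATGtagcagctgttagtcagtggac
228251 bp from the start of Cbln4, chr2:171815115-171815315: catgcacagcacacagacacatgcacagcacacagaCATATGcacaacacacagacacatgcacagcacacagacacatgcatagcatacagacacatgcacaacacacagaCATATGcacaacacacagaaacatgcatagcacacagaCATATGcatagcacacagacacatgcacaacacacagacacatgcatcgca
The copies in the Mpdz and Cntn4 regions did not stand in a tandem repeat, although several followed the same 3 letters, tac. The printed Cbln4 window was a tandem repeat of short units. That window was soft-masked as repeat over its whole length, and its 3 copies lay in that repeat.

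The libraries differed in depth, which bears on any region defined by a missing peak. The lists held 63000 peaks in WT1, 100088 in WT2, 82975 in KO1 and 85418 in KO2, and the genome background recovered from the peak values ran from 4.41 read ends in WT1 to 6.85 in WT2. The lowest peak called stood 2.94 times over the genome background in WT1 and 2.34, 2.49 and 2.38 times in WT2, KO1 and KO2. WT1 was therefore the library in which a weak site was most easily missed. No library had a peak in the Esm1 gene (chr13:113209659-113218098) or within 1000 bp of its start, so these lists do not check the knockout. Promoters of oligodendrocyte precursor (OPC) and proneural genes were open for 17 to 20 of 23 genes in each library, and those of T and NK cell genes for 2 of 19 in every library.

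Most KO-only regions were weak peaks. The height at the summit was 15 to 67 read ends in KO1 (median 22) and 16 to 130 read ends in KO2 (median 25), which are 3.65 and 3.73 times the genome background of those libraries at the median. Heights chose the regions, so they are given as a description with no test. In 688 regions (37.9%) the peaks of both KO libraries fell in the lowest quartile of heights of their lists, and in 87 (4.79%) both lay above the middle of their lists. The lower of the 2 KO multiples was under the lowest multiple that WT1 could call in 252 regions (13.9%), and in none did it lie under that of WT2. A site of that height in WT1 would have given no peak. That multiple was the lowest of any WT1 peak, so sites above it can also have been missed, and their number was not tested.

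Both edges of the definition held near neighbors. The weakest KO-only calls had a −log10 q of 1.40 in KO1 (chr15:40038362-40038729, 15 read ends) and 1.43 in KO2 (chr12:44498935-44499247, 20 read ends). Just outside, the weakest WT2 call that removed a region from the set had a −log10 q of 1.35 and 16 read ends (chr18:78757371-78757964), and the weakest such WT1 call had 1.73 and 13 read ends (chr8:88603994-88604593). At the promoter edge, a region 1011 bp from a start of Kcnip2 was kept, and one 978 bp from a start of Cd276 was not. The summits of the 2 KO peaks in a region lay a median of 64 bp apart, and in 745 regions (41.0%) they lay within 50 bp of each other.

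**Figure D1:**
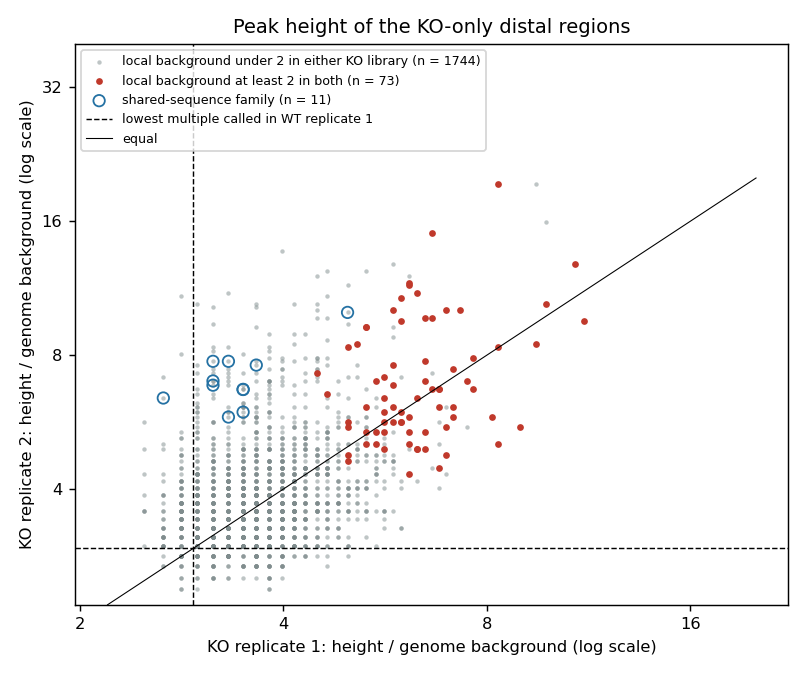
Each point is 1 of the 1817 KO-only distal regions, with peak height divided by genome background in KO1 (x axis) and KO2 (y axis), both on log scales. Red points are the 73 regions with a local background of at least 2 in both KO libraries, blue rings the 11 regions of a family of shared sequence, and dashed lines mark the lowest multiple called in WT1 (2.94). Most points lie close above those lines.

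The highest KO-only regions sat on a raised local background. MACS2 compares each peak with a local background, and that background was at least 2 times the genome background in both KO libraries for 73 regions (4.02%) in all but for 60 of the 100 highest. The first in rank, at chr11:3127969-3128535 and 59064 bp from a start of Sfi1, had heights of 65 in KO1 and 86 in KO2 over local backgrounds of 5.38 and 7.54 times the genome level. The region in the untranslated part of Ier5l (chr2:30471873-30472314), an immediate early response gene relative, had 59 and 70 over 4.36 and 4.66. In both cases the peak was not much higher than its surroundings, with folds of 1.98 and 1.69 at Sfi1 and 2.2 in both libraries at Ier5l. A region 18650 bp from the start of Ghrhr, the receptor of growth hormone-releasing hormone, had 67 and 64 read ends. An intronic region of Uchl1, a neuronal deubiquitinase, had 57 in both, and one 2754 bp from Cdk5r1, the activator of the neuronal kinase CDK5, had 50 and 56.

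The same held further down the ranking, for regions near Clip2 (46 and 53), in Tlcd2 (44 and 68), in Atp8a1 (43 and 50) and in Scd2, a stearoyl-CoA desaturase of brain lipid synthesis (45 and 47). Their local backgrounds were 2.74 to 4.25 times the genome level in both KO libraries. The ranked regions also crowded near genes, with 28 of the 100 highest within 5 kb of a start against 130 of all 1817 (7.16%).

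Efl1 differed from these. The region in an intron of Efl1, a GTPase of ribosome maturation, at chr7:82771046-82771972, had 59 read ends in KO1 and 107 in KO2 over local backgrounds of 1.06 and 1.42 times the genome level, and 67.2% of its summit window was soft-masked. Its folds of 8.15 and 10.2 led the ranking by the lower fold, which was added after the values were seen. An intronic region of Cpeb4, a translational regulator of mRNA, came next in that ranking at 35 and 86 read ends (chr11:31922568-31923083), with all of its summit window soft-masked. Regions 457192 bp from Nova1, a neuronal splicing factor, and 98522 bp from Lrrn1, a leucine-rich repeat neuronal protein, stood at 30 and 63 and at 29 and 47 read ends over local backgrounds of at most 1.19 and 1.1 times the genome level.

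A second edge of the set was made by KO2. The multiple of the background was at least 2 times higher in KO2 than in KO1 in 63 regions (3.47%), and in no region was it at least 2 times higher in KO1. The pair of regions in Def8 introns, chr8:123425848-123427062 and chr8:123433712-123434589, had 50 and 57 read ends in KO1 and 130 in KO2 at both. The others included an intron of Gfap, the astrocyte intermediate filament (24 and 92), an intron of Rara, a retinoic acid receptor (32 and 83), and a site 165311 bp from Inhbb, an activin subunit (20 and 74). These 63 regions had a median GC content of 55.2% against 45.8% in the other 1754 and were wider, with medians of 781 bp against 386 bp. They held CATATG in 1 case (1.59%) against 231 of the others (13.2%).

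Outside promoters, KO-only regions lay in introns less often than WT-only regions and regions open in all 4 libraries. By the position of the summit, 926 (51.0%, 95% Wilson interval 48.7 to 53.3) were intergenic, 822 (45.2%, 43.0 to 47.5) intronic, 37 in untranslated exons and 32 in coding exons of protein-coding genes. The intronic share was 58.0% (55.6 to 60.4) in WT-only regions, 53.1% in regions shared only by WT1 and KO2, 52.9% in those shared only by WT2 and KO1, and 49.4% in the 33767 distal regions open in all 4 libraries. The interval of the KO-only share overlapped none of these 4 values, but the share was 45.4% (44.4 to 46.5) in regions open in KO2 alone and 47.7% (46.9 to 48.5) in regions of WT2, KO1 and KO2, both with overlapping intervals. Intervals here cover counting error over regions only, and regions of 1 library are not independent samples. The median distance from the summit to a start was 47398 bp for KO-only regions and 39628 bp for WT-only regions. Over 500 kb from any start lay 6.27% against 3.30%. In regions of WT2, KO1 and KO2 the median was 49229 bp and 5.5% lay over 500 kb away. In regions shared only by WT2 and KO1 these values were 45556 bp and 4.6%. With peaks held to a −log10 q of at least 5, the intronic share was 44.6% (41.9 to 47.3) in KO-only regions. It was then 49.5% in WT-only regions and 46.6%, within that interval, in regions open in all 4. The stricter peaks define each set anew.

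Position went with height within the set. The intronic share was 52.6% in the highest quartile of KO-only regions and 38.8% and 43.1% in the 2 lowest. Among the 883 regions with flat surroundings in both KO libraries, meaning a local background within 1% of the genome level, 30.9% were intronic and the median distance to a start was 97793 bp. Among the 73 regions with a raised local background in both, 61.6% were intronic and the median distance was 7835 bp. The KO-only regions thus ranged from sites with raised surroundings close to genes to weak sites with flat surroundings far from genes.

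Few KO-only regions marked noncoding starts. Within 1000 bp of the start of a gene that is not protein coding lay 57 of them (3.14%, 2.43 to 4.04). The share was 4.44% in WT-only regions, with an overlapping interval (3.55 to 5.53), and 5.74% in the distal regions open in all 4 libraries. It was 3.24% in regions shared only by WT2 and KO1 and 5.0% in those shared only by WT1 and KO2. The 60 starts involved included 15 lincRNAs, 13 processed pseudogenes and 10 antisense genes. Within 1 kb of a region open in all 4 libraries lay 114 KO-only regions (6.27%), against 5.34% of WT-only regions, and within 10 kb lay 754 (41.5%).

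CATATG was held within 100 bp of the summit by 232 KO-only regions (12.8%, Wilson interval 11.3 to 14.4). The share was 4.20% in WT-only regions, 2.96% in regions of WT1 and KO2, 6.40% in regions of WT2 and KO1, and 6.15% in distal regions open in all 4 libraries. The KO-only share was 2.08 times that of the regions open in all 4 and 3.04 times that of WT-only regions. Defined without KO1, so that KO2 alone needed a peak, such regions held it in 6.40% against 5.97% of regions open in all 3 remaining libraries, with WT-only regions at 3.57%. The sequence was not used to choose the regions. Among the 1606 6-base words that at least 50 KO-only regions held, both strands counted together, CATATG ranked 1 by either ratio, and the median word had a ratio of 1.02 to the regions open in all 4. The words next to it, ACATAT and TATTGA by the first ratio, reached 1.93 and 1.78, and ACATAT overlaps CATATG by 5 letters.

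The share also varied with the presence of a WT1 peak. Regions with a peak in WT2, KO1 and KO2 but not in WT1 numbered 13979, and 10.2% of them (9.71 to 10.7) held CATATG. In the 7 other sets with a WT1 peak than the one open in all 4, the share was 2.91% to 4.21%, and it was 4.01% in the 573 regions with a peak in WT1, KO1 and KO2. In regions open in 1 library alone it was 8.0% for KO1, 5.83% for WT2, 5.04% for KO2 and 2.91% for WT1. KO-only regions had the highest share of the 15 sets, and its interval did not overlap that of the next. WT1 also had the lowest depth of the 4, and the part of depth in this order was not tested.

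**Figure D2:**
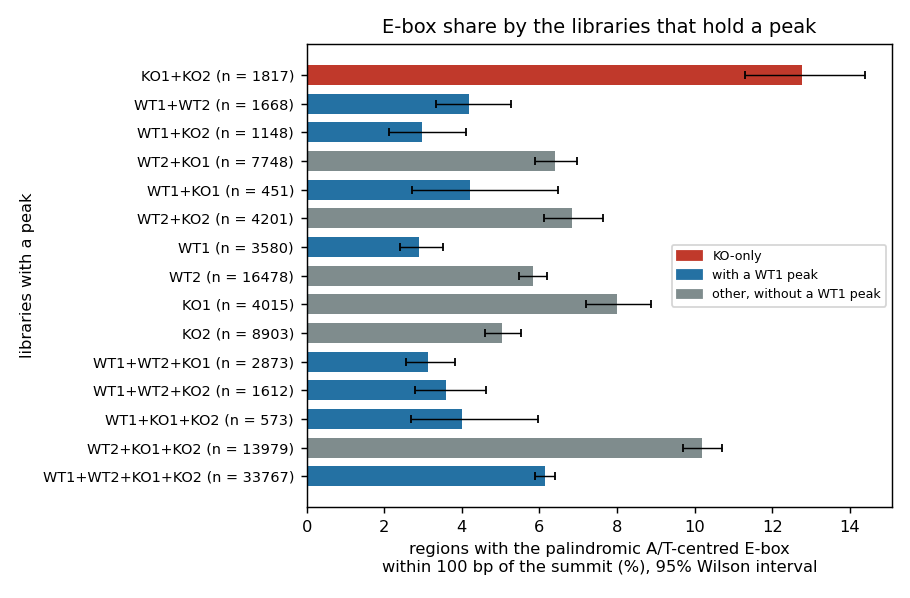
The bars give the percentage of distal regions with CATATG within 100 bp of the summit (x axis) for each set of libraries that held a peak (y axis), with 95% Wilson intervals. KO-only regions (red, 12.8%) stand above every other set, the sets with a WT1 peak (blue) run from 2.91% to 6.15%, and the regions of WT2, KO1 and KO2 come second at 10.2%.

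The difference was also present among windows of like base composition. CATATG is rich in A and T, and KO-only windows had a median GC content of 46.3% against 47.8% in WT-only regions and 49.3% in regions open in all 4. Among windows under 40% GC, 99 of 409 KO-only regions (24.2%, 20.3 to 28.6) held the motif, against 6.67% of WT-only regions, 6.06% of WT1 and KO2 regions, 9.54% of WT2 and KO1 regions and 12.5% of regions open in all 4. Above 50% GC the shares were 4.95%, 2.24%, 2.56%, 3.66% and 3.33% in the same order. Intervals of the KO-only and all-4 shares were apart below 50% GC and met above it.

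Within the set, CATATG favored regions with flat surroundings, at 17.6% (15.2 to 20.2) of those 883 regions, and was found in 2 of the 73 with a raised local background. It was held by 10.6%, 15.9%, 13% and 11.6% of regions from the highest to the lowest quartile of height, and by 2 of the 100 highest. Intronic and intergenic KO-only regions held it alike, at 12% and 14% with overlapping intervals. There were 260 copies in all, 208 regions having 1 copy, 20 having 2 and 4 having 3. By distance from the summit, 63 copies lay within 25 bp, 76 at 25 to 50 bp, 66 at 50 to 75 bp and 55 beyond, so the copies were spread over the window and not gathered at its center.

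Of the 6 sequences printed above, the Anxa11 region had 31 read ends in KO1 and 34 in KO2, and it lay in an intron of the gene of a calcium-dependent phospholipid-binding annexin. The Stum region had 32 and 34, in an intron of a mechanosensory transduction gene homolog and 2695 bp from its start. The Crym region, in the gene of the thyroid hormone-binding protein mu-crystallin, had 28 and 36. None of these differed much between the KO replicates. The regions with 3 copies had 23 and 30 read ends near Mpdz, 20 and 27 near Cntn4, 19 and 20 near Cbln4, and 21 and 24 at one near Gramd3. Other strong holders of the motif lay in or near Slc30a5, Hivep3, Evl, Sel1l3 and Bzw2, at 28 to 38 read ends in KO1 and 32 to 37 in KO2.

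The related E-box CAGATG was held by 563 KO-only regions (31.0%) against 18.8% of WT-only regions, 21.4% and 24% of the mixed pairs and 25% of regions open in all 4. In the regions of WT2, KO1 and KO2 the share was 29.9% (29.1 to 30.6), within the KO-only interval of 28.9 to 33.2. One or the other of these E-boxes was found in 737 KO-only regions (40.6%), against 21.9% of WT-only regions and 29.6% of those open in all 4, and 58 held both. CACGTG, the site of MYC and MAX, was at 2.31% in KO-only regions, 3.42% in WT-only regions and 3.89% in those open in all 4.

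Among 27 motifs searched on both strands, others varied between sets too. The octamer ATGCAAAT, bound by POU factors, was held by 58 KO-only regions (3.19%, 2.48 to 4.11) against 1.32% of WT-only regions and 1.89% of regions open in all 4. The NFI core TTGGCA was at 19.8% in KO-only, 11.5% in WT-only and 16.5% in regions open in all 4, but at 21.3% in the WT1 and KO2 regions. The hypoxia element TACGTG was at 0.825% in KO-only regions (15 of them), 2.10% in WT-only, 1.22% in WT1 and KO2, and 2.24% in regions open in all 4. AP-1 sites (TGANTCA) were at 12.1% against 9.83% and 13.4%, and the SOX word ACAATG at 9.74% against 11.1% and 8.43%, in WT-only regions and regions open in all 4. The RFX palindrome was found in none of the 1817 windows and in 0.293% of regions open in all 4. A match says only that these letters are present.

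**Figure D3:**
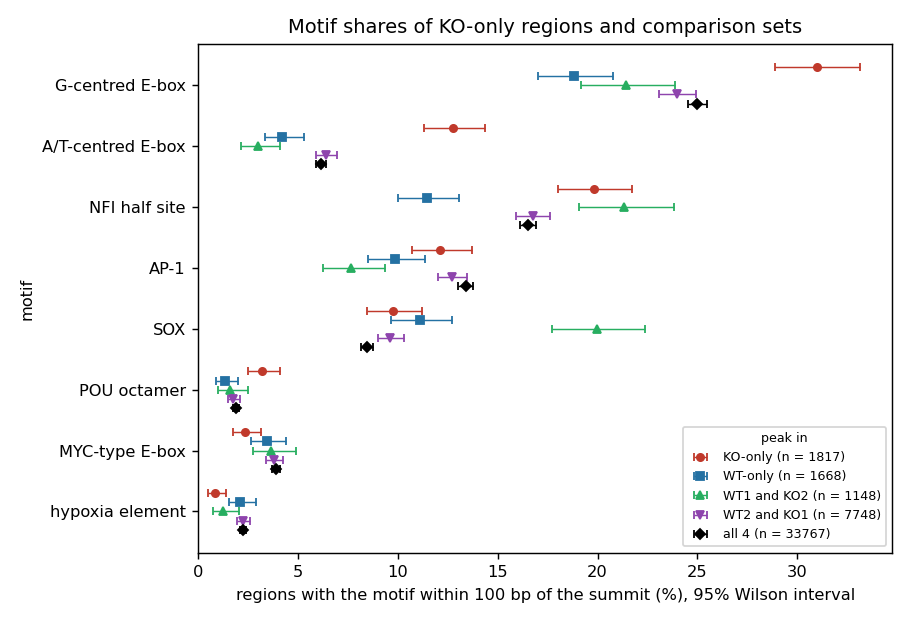
Points give the percentage of regions with each motif within 100 bp of the summit (x axis) in KO-only regions and 4 comparison sets, with 95% Wilson intervals. The KO-only points (red) lie right of the 4 comparison sets for CAGATG (named G-centred E-box in the plot), CATATG (A/T-centred E-box) and the POU octamer, and left of them for the hypoxia element.

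The lists with the most KO-only regions per region of shared open chromatin were those of neural stem cell, astrocyte, Notch pathway, OPC and proneural, and T and NK cell genes. Over all distal regions there were 5.38 KO-only regions per 100 regions open in all 4 libraries. Within 50 kb of a start of a listed gene the figure was 13.6 for neural stem cell genes (6 KO-only and 44 open in all 4), 12.2 for astrocyte genes (5 and 41), 10.9 for Notch pathway genes (7 and 64), 10.7 for OPC and proneural genes (6 and 56) and 10 for T and NK cell genes (3 and 30). WT-only regions numbered 1, 2, 3, 5 and 0 around the same lists. No KO-only region lay within 50 kb of the 16 mature oligodendrocyte genes, the 22 microglia and macrophage genes, the 22 mesenchymal glioblastoma genes or the 15 AP-1 genes, which had 52, 34, 37 and 46 regions open in all 4. These counts are small, lists share genes, and the lists were compared by counts alone.

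**Figure D4:**
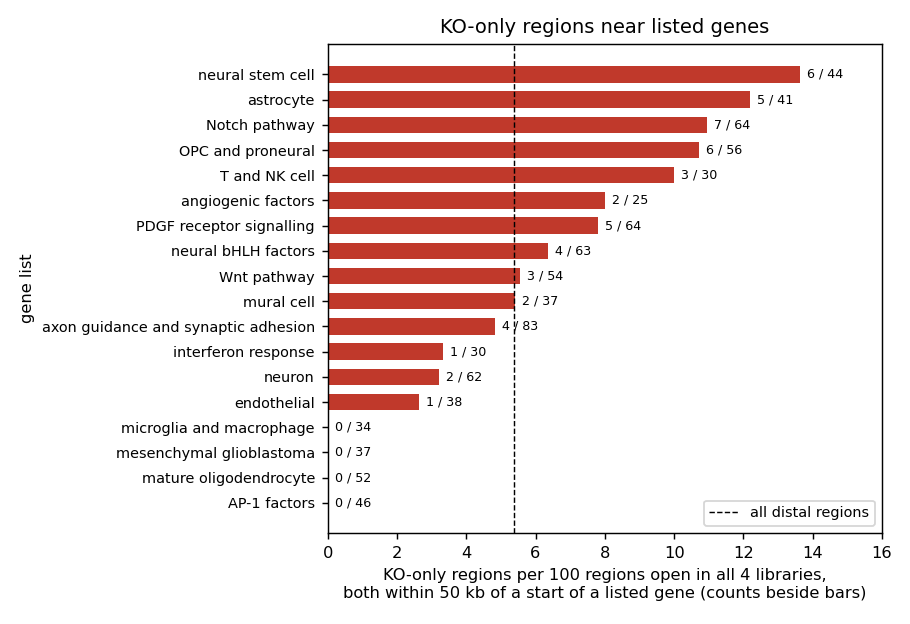
The bars give KO-only regions per 100 regions open in all 4 libraries, both counted within 50 kb of a start of a listed gene (x axis), for 18 gene lists (y axis), with the counts beside them. The dashed line is the value over all distal regions, 5.38, and neural stem cell, astrocyte, Notch, and OPC and proneural lists lie farthest to its right.

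The nearest region to an OPC gene was in an intron of Pdgfra, the receptor tyrosine kinase of PDGF ligands that marks these precursors, 1697 bp from a start (chr5:75163268-75163791), with 22 read ends in KO1 and 32 in KO2. A region 2573 bp from Bcan, which encodes the brain proteoglycan brevican, had 27 and 53 (chr3:88002328-88002979). A region in Nkx2-2, a homeobox factor of oligodendrocyte fate, had 21 and 49 (chr2:147193520-147195280). At all 3 the height was greater in KO2 than in KO1.

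Among neural stem cell genes, Notch1, a receptor that holds stem cells undifferentiated, had an intronic region with 27 and 65 read ends (chr2:26500134-26501116). Hes5, its target and a bHLH repressor, had one 12111 bp away with 26 and 41 (chr4:154948353-154948926). Sox9, a factor of stem cells and astrocytes, had one 16902 bp away with 21 in both (chr11:112799041-112799468). Of the other Notch pathway genes, Nrarp, a feedback inhibitor, had 20 and 48 at 5275 bp (chr2:25185785-25186507), and Numb, an inhibitor of Notch signaling in asymmetric division, had 24 in both at 6200 bp (chr12:83928061-83928317).

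The astrocyte genes had Gfap, with an intronic region of 24 and 92 read ends at 1330 bp from a start (chr11:102898229-102898833). Slc1a3, the glutamate transporter GLAST, had an intronic region with 18 and 36 (chr15:8706161-8706887), and Fgfr3, a fibroblast growth factor receptor of astrocytes, one at 16276 bp with 27 and 68 (chr5:33704888-33705885). The multiple of the background was higher in KO2 than in KO1 at 4 of the 5 regions near astrocyte genes, at 5 of 6 near OPC and proneural genes and at 4 of 6 near neural stem cell genes. It was at least 1.5 times higher at 4, 4 and 3 of them, against 198 of all 1817 regions (10.9%). The Sox9 region counted in both the astrocyte and neural stem cell lists, and the Bcan region in the latter and the OPC list. The region near Id1 (chr2:152705820-152706552) counted in the neural stem cell and neural bHLH lists. The Notch1 and Hes5 regions counted in the neural stem cell and Notch lists. The Dll1 region counted in the OPC and Notch lists, and the Pdgfra region in the OPC and PDGF lists. A further astrocyte region lay 40812 bp from Gfap. Near neural bHLH genes 4 of 4 regions were higher in KO2, 3 of them at least 1.5 times. Near PDGF receptor signaling genes 5 of 5 were, 0 of them at least 1.5 times. Of the regions near Notch pathway genes 3 of 7 were higher in KO2. Near Wnt pathway, axon guidance, and T and NK cell genes 2 of 3, 2 of 4 and 1 of 3 were. Near any listed gene 8 of 44 regions were at least 2 times higher, against 63 of all 1817 (3.47%). Promoters of the astrocyte list were open for 12, 12, 12 and 13 of 16 genes in WT1, WT2, KO1 and KO2. The part of host cells in these peaks was not tested.

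The other lists had at most 5 regions each, mostly near the middle of the height range. PDGF receptor signaling genes had 7.81 per 100 regions open in all 4, against 5.38 over all distal regions. Wnt pathway genes had 5.56, neural bHLH genes 6.35 and axon guidance genes 4.82. KO-only and WT-only regions numbered 5 and 5, 3 and 2, 4 and 6, and 4 and 7 around these lists, in that order. Near PDGF receptor signaling genes there were 5, including Gab1, a docking adaptor, at 20 and 23 read ends, and Pdgfb, a ligand of the PDGF receptors, at 22 and 31. Wnt pathway genes had 3, of which Axin2, a feedback inhibitor and target of the pathway, had 20 and 40, Fzd7, a Wnt receptor, 25 in both, and Tcf7l1, a transcriptional repressor of Wnt targets, 19 and 28. Neural bHLH genes had 4, with introns of Tcf12 (22 and 28) and Tcf3 (23 and 44), the E-proteins that pair with the lineage bHLH factors, and a site 8859 bp from Atoh8 (18 and 37). The strongest region near an axon guidance gene was 2888 bp from Efna5, an ephrin ligand, with 46 and 45 (chr17:62883943-62884369), followed by introns of Plxna1, a semaphorin coreceptor (23 and 33), and Robo1, the receptor of Slit (22 and 23).

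Of the vascular lists, only that of endothelial genes, with 1 KO-only region, lay under the figure over all distal regions. Per 100 regions open in all 4, endothelial genes had 2.63, mural cell genes 5.41 and angiogenic factors 8. The figure over all distal regions was 5.38. Vwf, the von Willebrand factor of endothelial cells, had an intronic region of 17 and 25 read ends (chr6:125561619-125561837), the only one near 22 endothelial genes. The mural cell genes had Abcc9, a channel subunit of pericytes, at 21 and 24, and Des, the muscle filament desmin, at 25 and 37 from a region in the neighbor Speg. Of the angiogenic factors, Vegfc had an intronic region of 23 and 21 and Ccn1 one 31608 bp away of 22 and 39. Near T and NK cell genes there were 3, in Cd28 (19 and 23) and near Il2rb (22 and 21) and Cd2 (21 and 23), while 1 lay near an interferon response gene, Ddx58, the RNA sensor RIG-I (19 and 21). Near the neuronal gene Tubb3 lay the 2 Def8 regions described above. Per 100 regions open in all 4, T and NK cell genes had 10, interferon response genes 3.33 and neuronal genes 3.23.

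KO-only regions were spread over the genome, with few groups. They made up 1.21% of the distal regions of chromosome 18 at the lowest and 2.40% of those of chromosome 19 at the highest. Only 9 groups of at least 3 within 100 kb were found, with 29 regions in them. Of these, 2 groups lay on chromosome 5 among the duplicated Speer4 genes, at chr5:15533190-15614262 (4 regions, 27 to 32 read ends in KO1 and 32 to 39 in KO2) and chr5:14947862-15007940 (3 regions, 26 to 33 and 35 to 41). Another lay in and near Gm31371 at chr8:19912296-20006799 with 4 regions. The span of the first held 15 distal regions and none open in all 4 libraries. Reads in near-identical copies cannot be assigned with certainty, so counts there are uncertain.

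The other groups had 3 regions each and lay in or near other genes. They included groups in Ank2, which encodes an ankyrin of neuronal membranes (20 to 27 read ends in KO1 and 24 to 30 in KO2), Magi1, a scaffold of cell junctions (17 to 23 and 21 to 25), Cntn5, a neuronal adhesion molecule (17 to 25 and 22 to 28), and one in and near Gpat4, a glycerolipid enzyme. One more lay near Usp24, a deubiquitinase. By gene, 800 protein-coding genes held a KO-only region and 711 of them held 1. The annotated locus Gm20388, which spans 4435 kb across many genes, held 12, Cntn5 and Magi1 held 5 each, and Ntm and Ryr2 held 4 each.

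Repeated sequence was more common in KO-only regions than in the comparison sets. Over 50% of the summit window was soft-masked in 125 of them (6.88%, 5.80 to 8.14), against 3.48% of WT-only regions, 2.61% and 3.59% of the mixed pairs and 2.54% of regions open in all 4. The share in regions open in KO2 alone was 8.54% and in KO1 alone 5.78%. A 24-base word was shared with another KO-only window in 47 regions (2.59%), which fell into 13 families, while 1.02% of WT-only regions, 1.46% of WT2 and KO1 regions and none of the 1148 WT1 and KO2 regions shared one.

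The largest family had 11 regions, of which 10 were intergenic and 1 lay in an intron of Immp2l, on 10 chromosomes. A stretch of 60 bases was identical in 5 of them and is shown for the region 296561 bp from Pid1, with no part in capitals.
Shared stretch, chr1:83987865-83987924: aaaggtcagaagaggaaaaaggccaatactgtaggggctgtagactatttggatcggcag
Heights in the 11 regions ran from 16 to 30 read ends in KO1 and from 39 to 67 in KO2. The region far from Acvr2a, at chr2:47530771-47532290, was the highest in both, with 30 and 67. The multiple in KO2 was 1.71 to 2.46 times that in KO1 (median 2.08), whereas the median over the other 1806 KO-only regions was 1.02.

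Among the genome's copies of the family, most peaks were found in KO2. Places that held any of the 254 24-base words found in at least 3 of the 11 regions numbered 96 on the autosomes, and 11 of them were the KO-only regions themselves, which were chosen for a peak in both KO libraries and in neither WT library. At the other 85 copies a peak lay at 47 (55.3%, 44.7 to 65.4) in KO2, at 1 (1.18%, 0.208 to 6.37) in WT1 and at 0 in KO1 and in WT2, with an upper limit of 4.32% for each. Every copy with a peak in both KO libraries and in neither WT library was among the 11. Their removal therefore bears on the 0 in KO1. Over all 96 copies, KO1 had a peak at 11 and KO2 at 58. At 46 copies KO2 alone had a peak, and at 38 no library had one. WT2 was the deepest library and had no peak at any of the 85 copies. Copies share sequence, reads cannot be placed among them with certainty, and 1 library, KO2, carried most of the peaks.

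**Figure D5:**
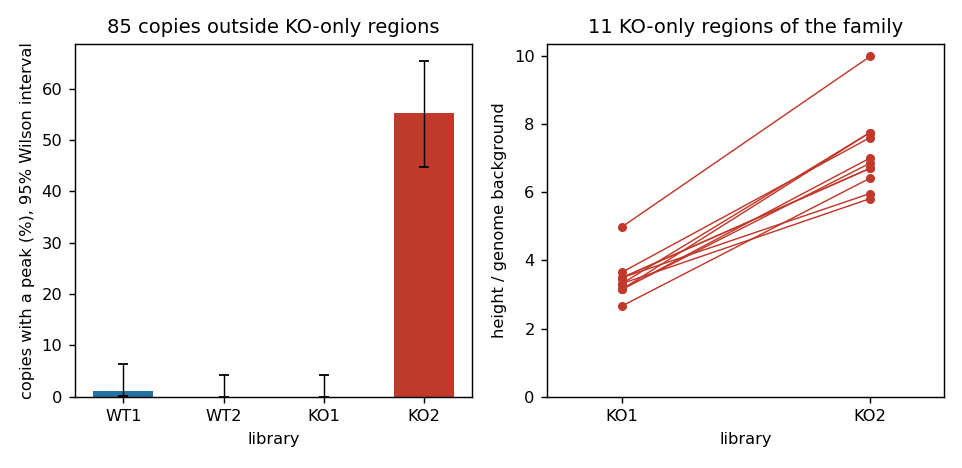
Left, the percentage of the 85 autosomal copies of the shared-sequence family outside the KO-only regions with a peak in each library (x axis), with 95% Wilson intervals. Right, height divided by genome background in KO1 and KO2 for the 11 KO-only regions of the family, a line joining the values of 1 region. KO2 had a peak at 55.3% of these copies and the greater value at each of the 11 regions. KO1 had a peak at none of these copies, from which the regions chosen for peaks in both KO libraries were left out.

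Few regions of shared open chromatin around the KO-only regions differed in height between hosts. Heights at the 48089 regions open in all 4 libraries were not used to choose KO-only regions, and they were compared between KO and WT on the log2 scale with limma after centering each library on its median. With a Benjamini-Hochberg adjusted p under 0.05, 18 regions (0.0374%) were higher and 1 (0.00208%) was lower in KO, and 13 of the 18 lay in the excluded segment of chromosome 15. Of 4740 such regions within 50 kb of a KO-only region, 1 was higher and 1 lower. At an unadjusted p under 0.05, 166 of these (3.50%) passed against 1480 (3.08%) of all 48089. The median log2 difference (KO minus WT) near KO-only regions was 0.00841 and that over all regions was −0.00411.

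The region that was higher in KO lay 101024 bp from Sh3bp4, a regulator of endocytosis and growth signaling, at chr1:89171008-89171871, with 16 and 26 read ends in WT1 and WT2 and 43 and 70 in KO1 and KO2. Every KO value was above every WT value, with a log2 difference of 1.31 (SE 0.27) and an adjusted p of 0.00426 by limma. A KO-only region lay 33287 bp from it. The region that was lower in KO lay at the promoter of Oxct2b (chr4:123116128-123117079), a ketone body transferase of the testis, with 47, 48, 23 and 23 read ends in the same order, a log2 difference of −1.16 (SE 0.27) and an adjusted p of 0.0443 by limma. Neither call held without KO2, where the adjusted p by limma was 1.00 for both. The Sh3bp4 call was also lost with heights divided by the genome background (adjusted p 0.0752 by limma), and the Oxct2b call without WT1 (0.777) or KO1 (0.126).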

How the data were processed

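ATAC-seq peaks of 2 WT and 2 KO tumors were analysed, 1 list per library, and replicates were not pooled. The authors deposited for each peak a fold (ratio) over local background, p-value and q-value as −log10, a score and a summit. MACS2, HOMER and mm10 are named in the submitters' processing notes, without versions, and the columns have the MACS2 layout. The study's methods describe Bowtie2, GRCm38 and Genrich instead. A shift of reads for the transposase is not stated in the sources used. The deposited score was not used in any result.

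Read totals are not given in the lists. Heights, in whole read ends, were recovered from fold and p-value, since the fold equals height plus 1 over background plus 1 and the p-value comes from a Poisson distribution at that background, within 0.001 on the −log10 scale for all but 2 peaks. The lowest background of a library was taken as its genome background and stands for its relative depth. Heights were not recovered where a library had no peak.

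Starts, exons and introns came from the 21951 protein-coding genes of GENCODE M21 (54340 start positions). The summit used was that of the highest multiple of genome background. Summit windows (100 bp on either side) were read from GRCm38.p6, lower case marking repeats. Shares carry 95% Wilson intervals. Heights of regions open in all 4 libraries were tested with limma 3.58.1 in R 4.3.3 (mean-variance trend, Benjamini-Hochberg adjustment), and other steps used Python 3.11.15. Height recovery, merging and the limma fit were tested on simulated data. The named regions were the 12 highest by the lower KO multiple, up to 3 per gene list within 50 kb, every group of at least 3 within 100 kb, and the 8 strongest and all 3-copy holders of the leading motif. The regions, lists and motifs were chosen with earlier results of these data known. The shared-sequence search, the KO2-to-KO1 ratios and the ranking by fold were added after seeing the data. Samples with the same number were not treated as pairs. Alternatives were stricter peaks, equal list lengths, other overlap, window and promoter widths, and leaving out each library.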

Additional observations from a re-analysis of the deposited data

How the results depend on the processing

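The number of KO-only regions was within 1.5 times of 1817 under stricter peaks, equal list lengths, 50% cover, 500 bp windows, a 2500 bp promoter and, both added later, basic annotation starts or without repeats. Under stricter peaks, KO-only regions (1290) were fewer than WT-only regions (1351), the reverse of the main order (1817 and 1668). Leaving out 1 library each gave 2390 to 15974 regions, 15974 without WT2, 10813 without KO1 and 5902 without KO2. The CATATG share was 6.40% to 10.8% without 1 library (6.40% without KO1, where the regions need KO2 alone) and 7.04% in 50 bp windows, with WT-only regions at 2.10% there. In each of these sets it was above the WT-only share, and without KO1 it was near the 5.97% of regions open in all remaining libraries. The intronic share was 45.4% to 51.7% without 1 library. Without KO2 it was 51.7%, above the 50.1% of regions open in all remaining libraries and under the 55.4% of WT-only regions. The part of depth in these shifts was not tested.

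Samples share only a replicate number, and the deviations of WT1 and KO1 from their group means correlated at −0.341 over shared regions. With a replicate block in limma, 0 regions near KO-only regions were higher and 0 lower in KO (adjusted p 0.113 at Sh3bp4 and 0.652 at Oxct2b). Within 10 kb there were 0 and 0, and with heights divided by the genome background 0 were higher. Without 1 library, 0 to 16 were higher (16 without KO1, 9 without WT1, 4 without WT2, 0 without KO2) and 0 to 1 lower (0 without WT1, KO1 or KO2). In those fits the lone library of a group was assumed to vary like the other group. Crossed pairing (WT1 with KO2), added after seeing the data, gave 11 higher and 2 lower of the 4740 regions near KO-only regions. Over all 48089 regions it gave 81 higher and 20 lower. Other settings gave the counts as reported. Depth limits all of this, since a weak site in WT1 has no peak and no value.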
